A study of Mus musculus with 13 samples.

Results

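RNA from common lymphoid progenitor cells (CLPs) of 8 Notch1 mutant mice was compared with RNA from CLPs of 5 WT mice, and genes that moved in the same direction in both mutant genotypes were followed. The 8 mutant libraries are 5 from Notch1+/- mice, which keep 1 functional copy of Notch1, and 3 from Notch1+/dTAD mice, in which 1 copy lacks the transactivation domain. Together with the 5 WT libraries they make up all 13 libraries of the series. All mice were adults of the C57BL/6 strain aged 6 to 12 weeks, and the study used both males and females. CLPs were sorted from bone marrow as viable, lineage-negative cells with low Sca1 and low cKit that stained for CD127 (the product of Il7r) and CD135 (the product of Flt3), and 3′ end libraries were prepared in a single batch from a small input of their RNA. Libraries are named here by genotype and by the number in their title, WT 1, 2, 3, 10, and 11, Notch1+/- 4, 5, 6, 12, and 13, and Notch1+/dTAD 7, 9, and 14.

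Notch1 is a receptor on the cell surface that is cut when it binds a ligand on a neighboring cell. The freed intracellular part enters the nucleus and joins the DNA-binding protein RBPJ, and its transactivation domain helps recruit coactivators to the genes bound there. CLPs are marrow progenitors that can give rise to B cells, natural killer cells, and T cells, and Notch1 signaling is best known for directing progenitors to the T cell fate. The comparison asks which transcripts differ when 1 copy of Notch1 is either lost or lacks this domain.

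The deposited values are length-scaled transcript abundances (TPM), which sum to the same total in each library. No read counts were used here, so the depth behind a value is unknown. A TPM of 0 can mean that a transcript was absent or that it was missed, and genes that most cells use were also listed at 0 in single libraries, for example Tcp1 in Notch1+/- 5 and 6. The libraries were sparse. Of 24972 genes in the table, 10149 were above 0 in at least 1 library and 772 in all 13. Between 3179 and 3855 genes (median 3375) reached 1 TPM in WT libraries and between 2818 and 4736 (median 4076) in mutant libraries. The pooled difference was within the spread (2-sided exact permutation test, p = 0.183). By genotype, Notch1+/dTAD 7, 9, and 14 had 3984, 4168, and 4663 such genes, each more than any WT library. The Notch1+/- libraries ran from 2818 to 4736. Whether detection differed by genotype was not tested.

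Markers of sorted CLPs were uneven at the level of single genes. Dntt, the terminal transferase of early lymphoid cells, ranged from 3482 to 7459 TPM in WT and from 2095 to 9616 TPM in mutant libraries. Flt3 ranged from 40.6 to 282 TPM in WT and from 5.21 to 281 TPM in mutant libraries, and Il7r was above 1 TPM in every library except Notch1+/- 6, where it was listed at 0. Kit, the gene of cKit, reached 1 TPM in 3 of 5 WT and 3 of 8 mutant libraries, Ly6a, the gene of Sca1, in 1 of 5 and 4 of 8, and Rag1, of the recombinase, in 3 of 5 and 7 of 8. The summed TPM of 22 CLP genes was 6360 to 11065 in WT and 4677 to 12733 in mutant libraries. Among markers of other cells, 7 of 8 erythroid and megakaryocyte markers, 4 of 5 stromal and endothelial markers, and 4 of the 6 T and NK markers in the table were listed at 0 in all 13 libraries. This held for 0 of 7 B lineage, 0 of 7 myeloid, and 0 of 4 dendritic markers. The summed TPM of 15 dendritic and MHC class II genes was 1239 to 3191 in WT and 1461 to 4243 in mutant libraries. The summed TPM of 26 myeloid genes was 941 to 2610 in WT and 810 to 2350 in mutant libraries, and that of 20 B lineage genes was 460 to 2073 and 294 to 2348. The pools overlapped in all 7 summed marker lists (unadjusted exact permutation p from 0.183 to 0.839).

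Library numbers 1 to 9 and 10 to 14 differed in their sex-linked genes. Xist, the RNA of the inactive X chromosome, reached 1 TPM in 0 of 8 libraries numbered 1 to 9 and in 4 of 5 numbered 10 to 14. A gene of the Y chromosome reached 1 TPM in 6 of 8 and 0 of 5. In numbers 1 to 9, those without one were Notch1+/dTAD 7 and 9, with Y genes at 0.175 TPM or less. Each range holds all 3 genotypes, with 3 WT and 5 mutant libraries in the first and 2 WT and 3 mutant libraries in the second, and values within each range are given below. The labels do not call this range a batch.

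Notch1 itself, on chromosome 2 of GRCm38 (26457903 to 26516663, minus strand), was listed at 18.5, 25.7, 13.8, 0, and 8.83 TPM in the WT libraries. In the mutants it was at 34.8, 35.1, 78.5, 25.8, and 9.27 TPM for Notch1+/- and at 32.4, 35.0, and 0.893 TPM in the Notch1+/dTAD libraries. The mutant libraries were not the lower ones, and the pools overlapped. The mean of log2(TPM + 1), the scale of all differences below, was 1.25 higher in mutants (standard error 1.29, limma Benjamini-Hochberg adjusted p = 0.954). Notch1 is therefore no check of the genotype labels.

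Il21r, the receptor chain for interleukin 21, was listed at 223, 15.1, 125, 21.6, and 295 TPM in WT, at 191, 0, 0, 44.6, and 280 TPM in Notch1+/-, and at 0, 0, and 0.447 TPM in Notch1+/dTAD libraries. All 3 Notch1+/dTAD libraries lay below all WT libraries, whereas 3 of the 5 Notch1+/- libraries lay within the WT range. The pooled difference was -3.58 (standard error 1.71, limma adjusted p = 0.834, exact permutation p = 0.0746), made of -2.06 in Notch1+/- and -6.12 in Notch1+/dTAD CLPs. The difference between the mutant genotypes had an unadjusted limma p of 0.0615. Deptor, an inhibitor of the mTOR kinase, was listed at 45.5 TPM in WT 10, at 16.1 TPM in WT 11, and at 0 in the other 11 libraries, too few for the limma test (exact permutation p = 0.256).

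For the test across genes, limma was run on the 4307 genes with at least 1 TPM in at least 5 of the 13 libraries. No gene passed a Benjamini-Hochberg adjusted p under 0.05 (0 genes, 0.0% of those tested), and the smallest adjusted p was 0.13, shared by Sarnp, Cdc37, and Mcts1. The unadjusted p was under 0.05 for 257 genes, or 5.97% of those tested, and the threshold alone corresponds to 215.35 genes. Of these, 172 were higher in mutants (3.99%) and 85 were lower (1.97%). An exact permutation test of every gene, which can give no p below 0.00155 over the 1287 ways to choose 8 of 13 libraries, had 121 genes higher and 96 lower at an unadjusted p under 0.05 and none after adjustment, with a smallest adjusted p of 0.832. The excess of higher genes depended on the scaling and on the minimum for testing. Quantile normalization gave 131 genes in each direction and moved the median difference of all tested genes from 0.23 to -0.04. Median-ratio scaling gave 170 higher and 84 lower genes. With every gene above 0 in at least 1 library there were 166 higher and 157 lower, and with 1 TPM in at least 3 libraries 174 and 121. A term for the number of genes at 1 TPM gave 133 higher and 173 lower genes.

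Leaving out a single library changed the adjusted calls in 3 of 13 cases. Cdc37 had a limma adjusted p of 0.00238 without WT 2, Mcts1 of 0.0224 without Notch1+/- 4, and Sarnp of 0.0021 and Oaz2 of 0.037 without WT 10. Cdc37 in WT 2, Mcts1 in Notch1+/- 4, and Oaz2 in WT 10 stood apart from the rest of their pools, whereas Sarnp was also high in WT 1. With all libraries, none of these genes passed.

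Among the tested genes, 2831 had a mean that differed from WT in the same direction in both genotypes, 1744 of them higher and 1087 lower. Another 1476 moved in opposite directions, of which 500 were higher in Notch1+/- only and 976 higher in Notch1+/dTAD only. Both differences use the same 5 WT libraries, so they are not independent and the count has no test. In 1170 genes the difference was at least 1 in both genotypes, 772 higher and 398 lower. Of the 257 genes at an unadjusted p under 0.05, 172 were higher and 84 lower in both genotypes, and 1 had genotypes of opposite sign.

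The minimum for testing favors genes that are high in mutants. With 8 mutant and 5 WT libraries, a gene listed in no WT library can reach 5 libraries from the mutants alone, whereas a gene listed in no mutant library must be at 1 TPM in every WT library. Of the tested genes, 75 had no WT library at 1 TPM, and 71 of them were among the 172 higher genes. These genes, among them Mcts1, Il4ra, Mfsd1, Fam110a, Rabac1, Ccr9, and Ptpn2, passed the minimum through mutant libraries alone. Their p-values are given as a description and not as support. No tested gene lacked a mutant library at 1 TPM. Counted over the whole table, 928 genes reached 1 TPM in all 5 WT libraries and 814 in all 8 mutant libraries, with 592 in both sets. The number at 1 TPM in at least 7 mutant libraries and no WT library was 6, and the number at 1 TPM in at least 4 WT libraries and no mutant library was 1. With 1 exception allowed, 7 genes were at 1 TPM in all mutant and at most 1 WT library, and 1 gene, Chmp2b, was at 1 TPM in all WT and at most 1 mutant library.

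The leading 12 higher genes, ranked by p among those at least 1 higher in each genotype, are Sarnp, Cdc37, Mcts1, Mrpl14, Oaz2, Fxr1, Il4ra, Mfsd1, Sla, Fam110a, Rabac1, and Gabarapl2. Over these genes, 13 of 60 WT values and 90 of 96 mutant values were at 1 TPM or more. The values chose the genes, so the contrast is a description. The adjusted p ranged from 0.13 to 0.686.

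Sarnp encodes an RNA-binding protein of the mRNA export machinery. It was listed at 82.9, 0, 0.905, 602, and 0 TPM in WT libraries, at 1073, 803, 1133, 1372, and 782 TPM in Notch1+/-, and at 740, 808, and 473 TPM in Notch1+/dTAD libraries. Every Notch1+/- library lay above every WT library, and only WT 10 entered the range of the Notch1+/dTAD libraries. The pooled difference was 6.44 (standard error 1.27, limma adjusted p = 0.13), made of 6.67 in Notch1+/- and 6.05 in Notch1+/dTAD CLPs. Sarnp lies on chromosome 10 (128817333 to 128877629, plus strand) and overlaps Dnajc14 on the same strand, so reads of the pair may be confused.

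Cdc37, which brings protein kinases to the chaperone Hsp90, lies on chromosome 9 (21133222 to 21149982, minus strand) with no annotated gene overlapping it. WT libraries were at 0, 162, 0.297, 0.455, and 0 TPM, Notch1+/- libraries at 283, 309, 266, 192, and 98.2 TPM, and Notch1+/dTAD libraries at 138, 223, and 218 TPM. A single WT library, WT 2, was as high as the mutants. The pooled difference was 6.02 (standard error 1.22, limma adjusted p = 0.13), with 6.09 in Notch1+/- and 5.91 in Notch1+/dTAD CLPs.

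Mcts1 on chromosome X (38600578 to 38613426, plus strand), a factor that helps ribosomes recycle and start again, was listed at 0 in all 5 WT libraries. It was at 1.56, 81.4, 62.5, 192, and 321 TPM in Notch1+/- and at 430, 168, and 65.2 TPM in Notch1+/dTAD libraries. The pools did not overlap, although Notch1+/- 4 came close to the WT value. The limma adjusted p was 0.13, and the exact permutation p was 0.00155 before and 0.832 after adjustment. Mcts1 passed the minimum for testing through its mutant libraries alone, so these p-values only describe it. Because the WT value is 0 and depth is unknown, no fold change is given for Mcts1, nor is a difference printed for the other genes listed at 0 in every WT library.

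Mrpl14, a protein of the large subunit of the mitochondrial ribosome, was listed at 1.41 TPM in WT 10 and at 0 in the other WT libraries. In mutants it ranged from 1.36 TPM in Notch1+/dTAD 14 to 369 TPM in Notch1+/- 4, with a median of 149 TPM. The pools touched only between WT 10 and Notch1+/dTAD 14. The difference was 6.12 (standard error 1.34, limma adjusted p = 0.222).

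Oaz2, an antizyme that limits polyamine synthesis, was listed at 0.314, 0, 0.394, 155, and 0 TPM in WT and at 42.5 to 460 TPM (median 105) in mutant libraries. Only WT 10 was within the mutant range. Fxr1, an RNA-binding protein of the fragile X family, was listed at 19.1, 236, 0, 1.53, and 0 TPM in WT and at 47.4 to 746 TPM (median 245) in mutants. Only WT 2 was within the mutant range. Gabarapl2, an autophagy protein of the ATG8 family, was listed at 259, 0, 6.56, 0, and 1.04 TPM in WT and at 12.2 to 458 TPM (median 267) in mutants. Here WT 1 lay within the mutant range, just under its median. The differences of Oaz2, Fxr1, and Gabarapl2 were 5.27, 4.99, and 4.84, with standard errors of 1.32, 1.27, and 1.41 and limma adjusted p of 0.524, 0.524, and 0.686.

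Il4ra encodes the receptor chain shared by interleukins 4 and 13. It was listed at 0 in all 5 WT libraries, at 173, 140, 114, 0, and 26.0 TPM in Notch1+/-, and at 39.2, 26.8, and 48.0 TPM in Notch1+/dTAD libraries. The 7 mutant libraries above 0 all exceeded 25 TPM, and Notch1+/- 12 was listed at 0 like the WT libraries (limma adjusted p = 0.524). Il4ra and Il21r lie near each other on chromosome 7 (125552120 to 125579474 and 125603429 to 125633570, both on the plus strand). In the pooled means Il4ra was higher and Il21r lower than in WT, with limma adjusted p of 0.524 and 0.834. Il4ra passed the minimum for testing through mutant libraries alone, so this contrast is only a description.

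Mfsd1, a transporter of the lysosome, Fam110a, and Rabac1, a Rab-binding membrane protein, were also listed at 0 in all 5 WT libraries. In mutants Mfsd1 ranged from 0 to 194 TPM (median 97.0), Fam110a from 0 to 122 TPM (median 47.8), and Rabac1 from 0 to 519 TPM (median 112). Each was listed at 0 in 1 mutant library, and a different one for each gene, Notch1+/- 5, Notch1+/- 6, and Notch1+/dTAD 7. Sla, an adaptor that dampens antigen receptor signaling, was at 1.81, 0, 0, 0, and 1.80 TPM in WT and at 0.756 to 247 TPM (median 117) in mutants, with Notch1+/- 13 within the WT range. The limma adjusted p was 0.524 for Mfsd1, 0.641 for Sla, 0.675 for Fam110a, and 0.686 for Rabac1.

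**Figure D1:**
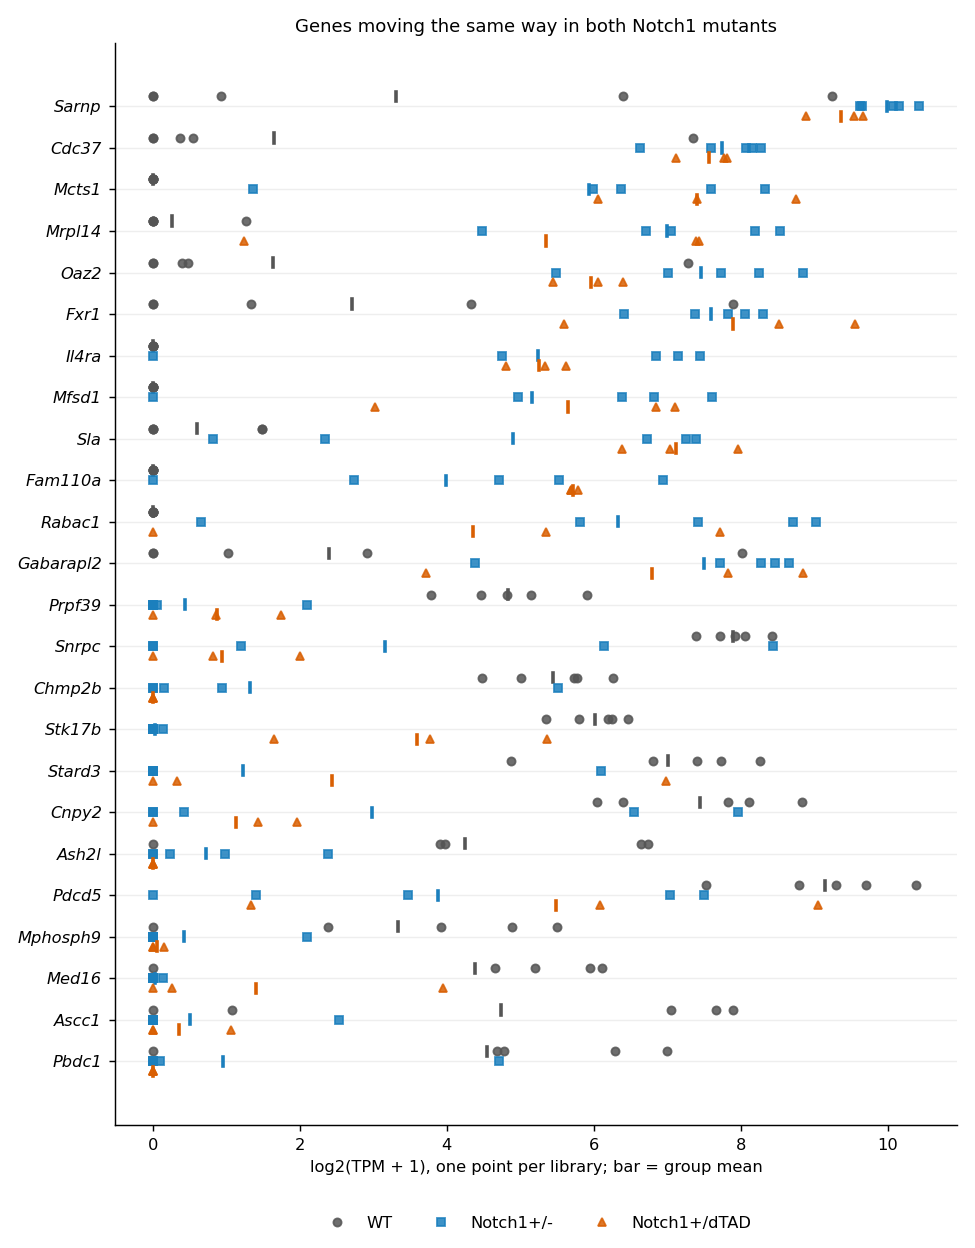
Level of the leading 12 higher and 12 lower genes, ranked by pooled p among genes at least 1 higher or lower in both genotypes. The x axis is log2(TPM + 1), each point is 1 library (gray circles WT, blue squares Notch1+/-, orange triangles Notch1+/dTAD), and bars are group means. In the upper 12 genes most WT points sit at or near 0 and most mutant points to the right, and in the lower 12 genes the order is turned around, with single points of either pool in the range of the other.

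The 12 lower genes chosen by the same rule were Prpf39, Snrpc, Chmp2b, Stk17b, Stard3, Cnpy2, Ash2l, Pdcd5, Mphosph9, Med16, Ascc1, and Pbdc1. Over these genes, 55 of 60 WT values and 29 of 96 mutant values were at 1 TPM or more. Their adjusted p ranged from 0.378 to 0.708.

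Prpf39, which acts with the U1 particle in recognizing 5′ splice sites, lies on chromosome 12 (65036333 to 65063386, plus strand). Its level was 34.5, 12.8, 21.2, 58.8, and 27.3 TPM in WT libraries, at 0, 0, 0, 3.27, and 0.0445 TPM in Notch1+/-, and at 0.807, 2.36, and 0 TPM in Notch1+/dTAD libraries. Every mutant library lay below every WT library. The difference was -4.23 (standard error 1.00, limma adjusted p = 0.378), made of -4.39 in Notch1+/- and -3.96 in Notch1+/dTAD CLPs. The exact permutation p of 0.00155 follows from the absence of overlap and was 0.832 after adjustment. A small RNA gene, Gm25970, overlaps it on the same strand.

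Snrpc, the U1-C protein of the same particle, was listed at 209, 264, 241, 167, and 341 TPM in WT, at 1.29, 0, 0, 345, and 69.4 TPM in Notch1+/-, and at 3.00, 0, and 0.771 TPM in Notch1+/dTAD libraries. All mutants except Notch1+/- 12 lay below the WT range. The difference was -5.57 (standard error 1.48, limma adjusted p = 0.524).

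Chmp2b, a subunit of the ESCRT-III complex that pinches off membranes, was listed at 52.0, 21.2, 75.5, 53.4, and 31.3 TPM in WT and at 0.922, 44.5, 0, 0, and 0.112 TPM in Notch1+/- libraries. It was listed at 0 in all 3 Notch1+/dTAD libraries. Only Notch1+/- 5 fell within the WT range. Stard3, which moves cholesterol at late endosomes, was listed at 110, 212, 305, 28.2, and 168 TPM in WT and at 0 to 125 TPM (median 0) in mutants. Notch1+/- 5 and Notch1+/dTAD 9 fell within the WT range. The differences of Chmp2b and Stard3 were -4.62 and -5.34, with standard errors of 1.24 and 1.53 and limma adjusted p of 0.524 and 0.686.

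Stk17b, a kinase that restrains T cell receptor signaling and can promote apoptosis, was listed at 39.6, 72.1, 87.1, 75.2, and 54.4 TPM in WT and at 0, 0, 0, 0, and 0.0976 TPM in Notch1+/- libraries. It was at 2.14, 40.3, and 12.6 TPM in Notch1+/dTAD libraries, between the other groups except that Notch1+/dTAD 9 passed the lowest WT library. The pooled difference was -4.64 (standard error 1.31, limma adjusted p = 0.675), made of -5.98 in Notch1+/- and -2.41 in Notch1+/dTAD CLPs, which had an unadjusted limma p of 0.0296 for the difference between genotypes. Pdcd5, a small protein linked to apoptosis, was at 443, 1335, 184, 627, and 828 TPM in WT and at 0 to 528 TPM (median 38.3) in mutants. Notch1+/dTAD 9 alone among mutants exceeded the lowest WT library, and the difference was -4.66 (standard error 1.40, limma adjusted p = 0.708).

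The remaining lower genes had a WT library at or near 0 or a mutant library in the WT range. Cnpy2, a protein of the endoplasmic reticulum, was at 83.5, 452, 225, 275, and 64.8 TPM in WT and at 0 to 248 TPM (median 1.01) in mutants. Ash2l, a core subunit of histone H3 lysine 4 methyltransferases, was at 0, 14.0, 98.3, 14.7, and 105 TPM in WT and at 0 to 4.19 TPM (median 0) in mutants. Med16, a subunit of the Mediator complex, was at 24.1, 60.9, 68.3, 35.6, and 0 TPM in WT and at 0 to 14.5 TPM (median 0) in mutants. Ash2l and Med16 would each be without overlap were it not for a single WT library at 0, which was WT 1 for Ash2l and WT 11 for Med16. Mphosph9, a centriole protein, Ascc1, a subunit of a helicase complex for alkylation repair, and Pbdc1 had differences of -3.06, -4.29, and -3.95, and each was listed at 0 in 1 WT library. The differences of Cnpy2, Ash2l, and Med16 were -5.15, -3.80, and -3.84.

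The promoters of these genes were searched for the core of the RBPJ site, TGGGAA on either strand (TTCCCA when read on the other strand), because RBPJ carries Notch1 to DNA. Promoters were taken from RefSeq on GRCm38.p6 as 300 bases around each start, 250 before and 50 after. Of the 24 genes, 22 matched a promoter and 10 of these held the core (45.5%), beside 889 of 3471 matched tested genes (25.6%) and 28.3% of all symbols with a promoter. A match shows only the letters and not that RBPJ binds there, and the 24 genes were chosen by their values. The windows below are those of the first 2 higher and the first 2 lower genes by p that hold the core. Those of Luc7l3 and Ppp1r18, which are described next and also hold it, were added. No window with the core was recorded for Cct2 or Paip2, which are described next as well. Ppp1r18 had another window, with its core from base -119, that is not shown. The windows let the neighboring bases be compared. Each is 5′ to 3′ on the strand of its gene with the core in capitals.
Oaz2, chr9:65676480-65676505, plus strand, core from base -58: gggccccagtTTCCCAggacaccaag
Fxr1, chr3:34020077-34020102, plus strand, core from base 9: ctagaatctcTTCCCAgcagcctttg
Prpf39, chr12:65036224-65036249, plus strand, core from base -100: cgctatggttTGGGAAgctaagtttg
Stk17b, chr1:53785443-53785465, minus strand, core from base -243: gaaaaagTGGGAAaagaggcgcg
Luc7l3, chr11:94321944-94321969, minus strand, core from base 5: cacggcatgcTGGGAAggtgcccggg
Ppp1r18, chr17:35865435-35865460, plus strand, core from base -150: gaaccaattgTGGGAAggaagatgag
Bases are counted from the transcription start, with negative numbers before it.

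In 6 genes the 8 mutant libraries did not overlap the 5 WT libraries, 2 with mutants above (0.0464% of tested genes) and 4 with mutants below (0.0929%). A gene without overlap always has the smallest possible exact permutation p, 0.00155, which was 0.832 after adjustment. Random assignment of the libraries would separate a gene at a rate of at most 0.00155, and 6 of 4307 is not above that rate. Mcts1 and Prpf39 are described above, and the others are Luc7l3, Cct2, Paip2, and Ppp1r18. Unlike most genes of the previous group, Luc7l3, Cct2, and Paip2 were above 1 TPM in all 13 libraries.

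Luc7l3, a U1-associated splicing factor, lies on chromosome 11 (94287890 to 94321988, minus strand). Its level was 363, 331, 121, 164, and 250 TPM in WT, at 422, 419, 453, 789, and 460 TPM in Notch1+/-, and at 528, 418, and 455 TPM in Notch1+/dTAD libraries. All mutants were above all WT libraries, by a narrow margin at the boundary. The difference was 1.08 (standard error 0.51, limma adjusted p = 0.815). The exact permutation p of 0.00155 follows from the absence of overlap and was 0.832 after adjustment. Of the U1-associated genes named here, Luc7l3 was the higher one in mutants and Prpf39 and Snrpc the lower ones.

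Paip2, which restrains translation by binding the poly(A)-binding protein, was listed at 407, 467, 650, 347, and 430 TPM in WT libraries. It was at 45.7, 149, 82.8, 147, and 137 TPM in Notch1+/- and at 6.38, 223, and 237 TPM in Notch1+/dTAD libraries. The highest mutant was well below the lowest WT library. The difference was -2.31 (standard error 0.83, limma adjusted p = 0.719), with -2.12 in Notch1+/- and -2.62 in Notch1+/dTAD CLPs.

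Ppp1r18, a protein phosphatase 1 partner that binds actin, had the narrowest WT spread of these 4 genes, at 139, 147, 119, 138, and 139 TPM. It was at 2.57, 0, 20.6, 48.7, and 59.4 TPM in Notch1+/- and at 40.1, 44.0, and 24.1 TPM in Notch1+/dTAD libraries, all below WT. The difference was -2.94 (standard error 1.15, limma adjusted p = 0.738). Ppp1r18 overlaps Ppp1r18os and Gm28033 on the other strand, and the sources used here do not say whether strand was used to assign reads.

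Cct2 encodes a subunit of the TCP-1 ring, the chaperonin that folds actin and tubulin. Its level was 262, 330, 139, 130, and 282 TPM in WT, at 20.7, 57.5, 94.8, 9.50, and 1.01 TPM in Notch1+/-, and at 2.43, 108, and 88.8 TPM in Notch1+/dTAD libraries. All mutants lay below WT, and the difference was -3.20 (standard error 1.14, limma adjusted p = 0.719). Tcp1 and Cct3, of the same ring, also had an unadjusted p under 0.05, with differences of -3.35 (standard error 1.38) and -2.65 (standard error 1.22), and limma adjusted p of 0.738 and 0.792. The other 5 subunits gave no such p. Cct4, Cct5, Cct6a, and Cct7 had differences of 0.56, 0.74, 1.15, and 0.55, and Cct8 of -0.53, with unadjusted limma p from 0.333 to 0.762. The ring was followed because Cct2, Cct3, and Tcp1 stood out, so the choice was made after the values were seen.

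Genes with high levels varied least between libraries, and their differences were small. When the tested genes were divided by mean level over all libraries into 4 groups of equal size, the median size of the difference was 0.91, 1.14, 1.13, and 0.61 from the lowest to the highest group, and the percent at an unadjusted p under 0.05 was 7.24, 5.57, 5.95, and 5.11. Psma7, a subunit of the proteasome core, was listed at 2290, 1276, 1909, 746, and 1659 TPM in WT and at 406 to 1022 TPM (median 682) in mutants. Only WT 10 fell within the mutant range. The difference was -1.17 (standard error 0.40, limma adjusted p = 0.719), with -0.91 in Notch1+/- and -1.62 in Notch1+/dTAD CLPs. Rpl28, of the large ribosomal subunit, was at 1427, 2099, 2139, 1883, and 2024 TPM in WT and at 2087 to 3586 TPM (median 2876) in mutants, and only Notch1+/- 6 was below the highest WT library. Its difference was 0.57 (standard error 0.25, limma adjusted p = 0.738). Rps3a1, of the small subunit, differed by 0.59 (standard error 0.24) and Rps29 by -0.29 (standard error 0.12), each with a limma adjusted p of 0.738. The direction of Rps29 depended on scaling, since quantile normalization brought it to 0.0091.

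**Figure D2:**
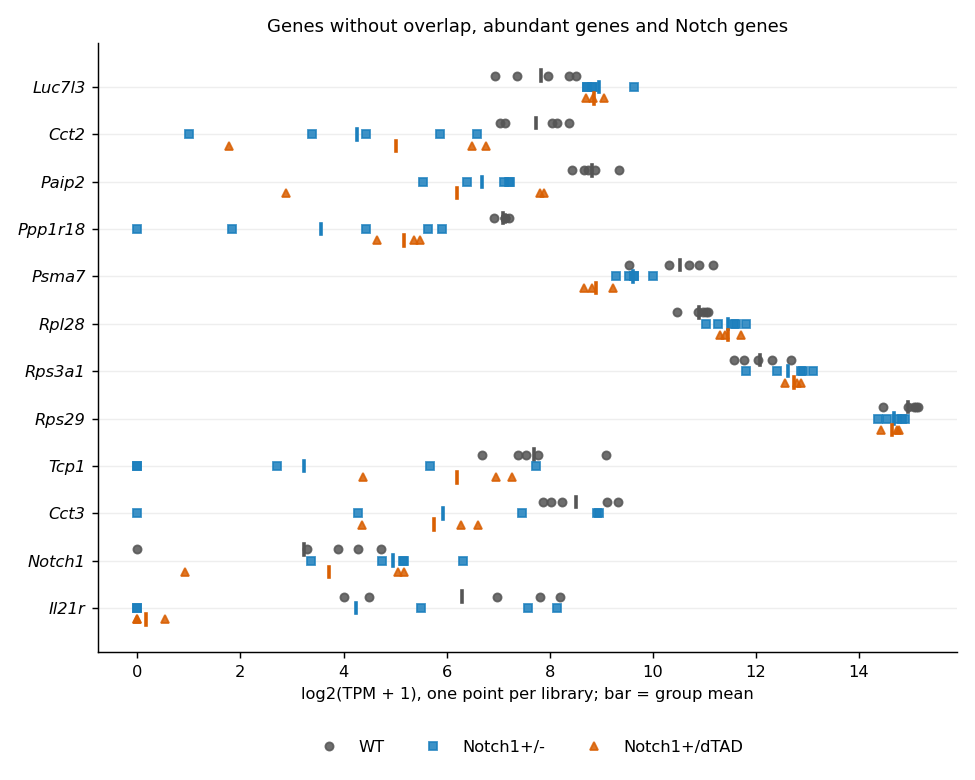
Level in each library of 4 genes without overlap between pools, of Psma7 and ribosomal protein genes, of Tcp1 and Cct3, and of Notch1 and Il21r. The x axis is log2(TPM + 1), each point is 1 library (gray circles WT, blue squares Notch1+/-, orange triangles Notch1+/dTAD), and bars are group means. Luc7l3, Cct2, Paip2, and Ppp1r18 show no overlap between gray and colored points, whereas Notch1 and Il21r do.

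The genotypes were then placed side by side in a model with 3 group means. Neither genotype had a gene at an adjusted p under 0.05 against WT. Before adjustment, 258 genes had p under 0.05 in Notch1+/- and 217 in Notch1+/dTAD CLPs, and the smallest limma adjusted p was 0.377 and 0.221. The median difference over all tested genes was 0.08 in Notch1+/- and 0.50 in Notch1+/dTAD CLPs. For the 7 of the 12 higher genes that were above 0 in a WT library, differences ran from 4.31 to 6.74 in Notch1+/- and from 4.33 to 6.53 in Notch1+/dTAD CLPs. For the 12 lower genes they ran from -5.98 to -2.92 and from -6.96 to -2.41. Of these 24 genes, only Stk17b had an unadjusted limma p under 0.05 for the difference between genotypes, beside 213 of all 4307 tested genes. The 24 genes were chosen for moving the same way in both genotypes, so their likeness between genotypes is built in.

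Between the genotypes themselves, 213 genes had an unadjusted p under 0.05 and 0 an adjusted one, with a smallest limma adjusted p of 0.756. The 3 genes with the smallest p among those that moved in opposite directions were Bola2, Ngdn, and Asf1b. Bola2, a partner in iron-sulfur cluster assembly, was listed at 0 in all 5 Notch1+/- libraries and at 19.4, 1128, and 544 TPM in Notch1+/dTAD libraries, with WT at 201, 27.4, 0, 0, and 0 TPM. Asf1b, a histone chaperone, was at 0.559, 0, 0, 0, and 0 TPM in Notch1+/- and at 365, 72.6, and 192 TPM in Notch1+/dTAD libraries, with WT at 0.531, 170, 260, 105, and 2.23 TPM. Ngdn, a protein of small ribosomal subunit assembly, was at 113 to 423 TPM in Notch1+/- libraries and at 0, 0, and 1.36 TPM in Notch1+/dTAD libraries, with WT from 0.745 to 926 TPM. The mutant genotypes did not overlap in any of these genes, WT libraries lay at both ends, and the pooled differences of Bola2, Asf1b, and Ngdn were 0.45, -2.03, and -0.28. The choice by p between genotypes itself favors such separation. How many of all tested genes separate the genotypes was not counted, so the lack of overlap is only a description.

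**Figure D3:**
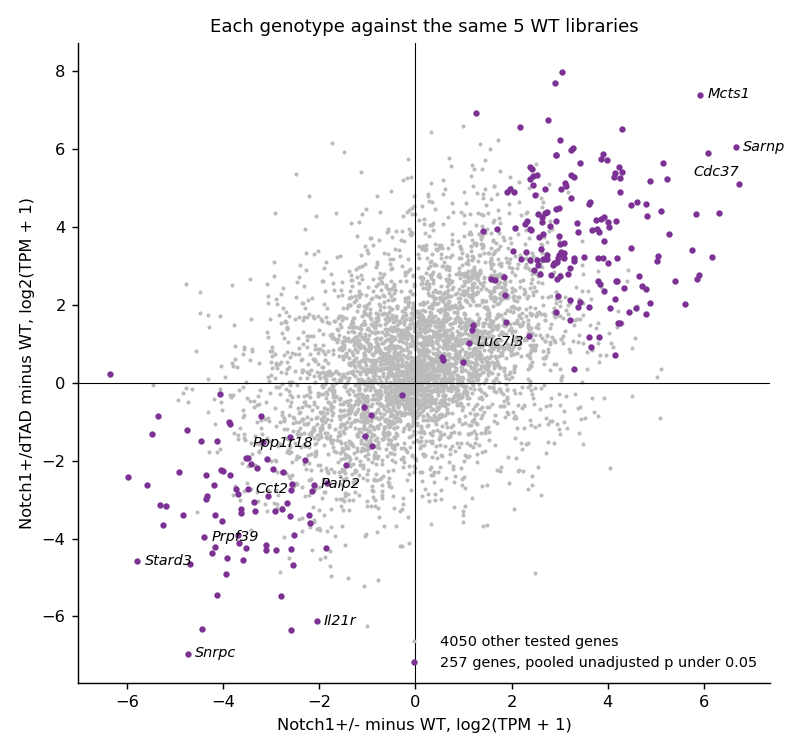
Difference from WT in Notch1+/- (x axis) and in Notch1+/dTAD CLPs (y axis), both on the log2(TPM + 1) scale, for 4307 tested genes. Each dot is 1 gene, and purple dots are the 257 genes at a pooled unadjusted p under 0.05. Purple dots lie mostly in the upper right and lower left, as the pooled test selects a difference over both genotypes, and both axes use the same 5 WT libraries, so the tilt of the gray cloud is not independent support.

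No gene of the Notch machinery passed even the unadjusted threshold. Of 42 receptors, ligands, and other parts of it, 19 were tested and none had an unadjusted p under 0.05, with a median difference of -0.13, beside 0.23 over all tested genes. The smallest p among them belonged to Kat2a, an acetyltransferase, Ctbp1, a corepressor, and Fbxw7, which marks the Notch intracellular part for degradation, with differences of -2.25, -2.98, and 2.47 and limma adjusted p of 0.845, 0.901, and 0.901. Of 23 Notch target genes, 9 were tested. Only Il21r had an unadjusted p under 0.05, and the median was 0.12. The levels of Bcl2, Ccnd1, and Cdkn1a overlapped widely between pools, with differences of 1.69, -1.38, and -1.04. The study also singled out Il21r from these same libraries, so its place in the list is not independent of them. Beyond RNA sequencing, the study reports further evidence for Il21r as a Notch target. This includes qRT-PCR of sorted CLPs, cultures treated with an inhibitor of γ-secretase, and a reporter assay of a human RBPJ site.

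Of 21 tested genes of CLP identity, 1 was higher and 0 were lower at an unadjusted p under 0.05, and the median was 0.11. Over all tested genes, 3.99% were higher and 1.97% lower. The higher one was Ccr9, a chemokine receptor that guides progenitors to the thymus. It was at 0.193, 0, 0.0649, 0, and 0 TPM in WT, at 60.5, 15.1, 74.9, 0, and 17.3 TPM in Notch1+/-, and at 60.3, 0, and 10.2 TPM in Notch1+/dTAD libraries. No WT library reached 1 TPM, and 6 of 8 mutant libraries were above 10 TPM. Ccr9 thus passed the minimum for testing through mutant libraries alone, so its p-value only describes it. The difference was 3.66 (standard error 1.29, limma adjusted p = 0.719), and Gm17200 and Gm17020 overlap the gene on the same strand. Of 22 lymphoid transcription factors 1 was higher, Erg at 3.18 (standard error 1.51), and the median was -0.24. None of 11 B lineage or 9 myeloid genes passed the unadjusted threshold.

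Of 11 genes of common gamma chain receptors and JAK-STAT signaling, Il4ra and Ptpn2 were higher and Il21r was lower at an unadjusted p under 0.05, with a median of 0.38. Ptpn2, a phosphatase that dampens JAK-STAT signaling, was listed at 0 in all 5 WT libraries. In mutants it was at 0.373, 17.4, 0.518, 150, and 12.4 TPM in Notch1+/- and at 332, 0, and 194 TPM in Notch1+/dTAD libraries, so that 3 mutant libraries were below 1 TPM (limma adjusted p = 0.719). Among 8 dendritic and MHC class II genes, Cd74, the invariant chain, was higher by 3.44 (standard error 1.55, limma adjusted p = 0.766), with WT libraries either at 303 and 393 TPM or under 1 TPM. Among 14 mTOR genes, Ddit4, an inhibitor of the pathway, was higher by 3.59 (standard error 1.57, limma adjusted p = 0.746). Neither list had a lower member at an unadjusted p under 0.05.

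Of 43 tested mitochondrial ribosomal proteins, 3 were higher and 0 lower at an unadjusted p under 0.05, with a median difference of 0.96. Of 75 subunits of oxidative phosphorylation, 7 were higher and 2 lower, with a median of 0.16. Of 19 import genes, 2 were higher and 0 lower, with a median of 0.24. All tested genes also had more higher than lower members, 172 against 85. Quantile normalization turned this balance to 131 against 131, median-ratio scaling to 170 against 84, and testing every gene above 0 to 166 against 157. Mrpl50 and Timm13 had no WT library at 1 TPM. Atp5k, a small subunit of ATP synthase, was listed at 295, 0, 19.5, 11702, and 2264 TPM in WT and at 1604 to 30587 TPM (median 4548) in mutants, and WT 10 and 11 lay in the mutant range. Cox7b, of cytochrome oxidase, was at 221, 0, 332, 11.3, and 9.96 TPM in WT and at 93.2 to 553 TPM (median 337) in mutants, and WT 1 and 3 lay in the mutant range. The differences of Atp5k, Cox7b, Ndufa10, and Tomm6 were 4.71, 3.56, 4.73, and 4.64, with limma adjusted p of 0.708 for each. Without WT 2 the difference of Atp5k was 2.85, and it was 7.80 in library numbers 1 to 9 and 0.12 in numbers 10 to 14. Uqcrb and Ndufv3, of complexes III and I, had differences of -3.78 and -3.89.

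Proteasome genes had a median difference of 0.79 over 32 tested, but 1 was higher and 1 lower at an unadjusted p under 0.05, Psma5 and Psma7. Psma5, listed at 0 in all 5 WT libraries, was at 216 to 301 TPM in Notch1+/dTAD libraries and at 47.6, 337, 0, 0.59, and 0.548 TPM in Notch1+/- libraries. Ubiquitin conjugating enzymes had the highest median among lists with at least 8 tested genes, 1.14 over 20, with Ube2d3 at 2.67 and Ube2v1 at 4.17 above WT and 0 lower. Of 59 zinc finger genes, 3 were higher and 1 lower (median 0.79), and of 50 genes of vesicle transport, 3 were higher and 1 lower (median 0.59). Over all tested genes the shares were 3.99% higher and 1.97% lower. Zfp687 of the zinc finger genes and Rab3d and Vps11 of vesicle transport had no WT library at 1 TPM. They passed the minimum for testing through mutant libraries alone.

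Cytosolic ribosomal proteins were close to the whole table, with 3 of 81 higher, 2 lower, and a median of 0.09. Of 67 splicing genes, 0 were higher and 2 lower, Prpf39 and Snrpc, with a median of 0.04, and of 37 chaperones, 1 was higher and 3 lower, with a median of 0.00. Of 64 cell cycle genes, 3 were higher and 2 lower, with a median of 0.10. Plk1, a mitotic kinase, Prim2, a primase subunit, and Ckap2l, a spindle protein, had differences of 4.22, -4.67, and -3.92, with limma adjusted p of 0.738, 0.719, and 0.719. Aurka, another mitotic kinase, was listed at 0 in all 5 WT libraries and at 0 to 478 TPM in mutants, with 3 mutant libraries also at 0. Of 16 apoptosis regulators, 0 were higher and 2 lower, Pdcd5 and Stk17b, and the median of -0.35 was the lowest of the lists with at least 8 tested genes. Of 23 genes of RNA polymerase II and Mediator, only Med16 passed the unadjusted threshold, and of 45 translation factors only Eif1ad, higher by 3.55. None of 10 glycolysis genes did. No member of any list passed the adjusted threshold, and over all tested genes the shares past the unadjusted threshold were 3.99% higher and 1.97% lower.

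**Figure D4:**
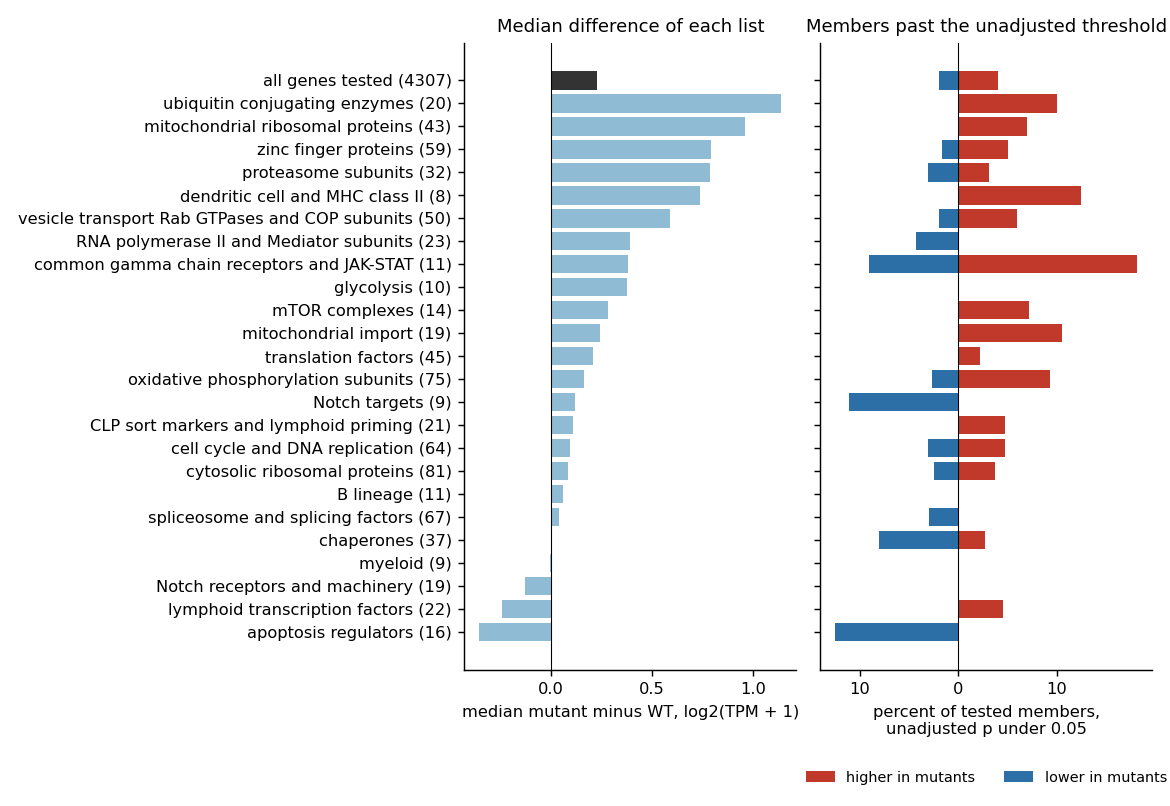
Gene lists with at least 8 tested members, the number tested in parentheses. Left, the median difference of mutants minus WT on the log2(TPM + 1) scale. Right, the percent of tested members higher (red) or lower (blue) at an unadjusted p under 0.05. The top row is all 4307 tested genes, with a median of 0.23, and the short lists reach high percentages with only 1 or 2 members.

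Library numbers 1 to 9 and 10 to 14 give estimates from separate mice. Across the 4307 tested genes, the differences of mutants minus WT in the ranges had a Pearson correlation of 0.02, and 2183 genes (50.7%) had the same sign in both. Genes are not independent replicates, and the value is a description. The median difference of these genes was -0.01 in numbers 1 to 9 and 0.56 in numbers 10 to 14, and with the minimum level applied within each range alone it was -0.07 and -0.02. Of the 257 genes at a pooled unadjusted p under 0.05, 256 had the same sign in both ranges, which the pooled choice itself favors.

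Sarnp differed by 7.37 in numbers 1 to 9 and by 5.02 in numbers 10 to 14, and Cdc37 by 5.31 and 7.06. For the 12 lower genes the difference was -7.26 to -2.21 and -6.60 to -1.28. Prpf39 had -3.95 and -4.64, Cct2 -2.76 and -3.96, Paip2 -2.99 and -1.19, Ppp1r18 -3.66 and -1.73, and Luc7l3 0.87 and 1.43. Since these 5 genes were named for having no overlap between pools, their sign was bound to be the same in both ranges. Tcp1 had -4.46 and -1.45 and Cct3 -3.20 and -1.66. Il21r had -4.75 and -1.63, and Notch1 1.07 and 1.36.

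**Figure D5:**
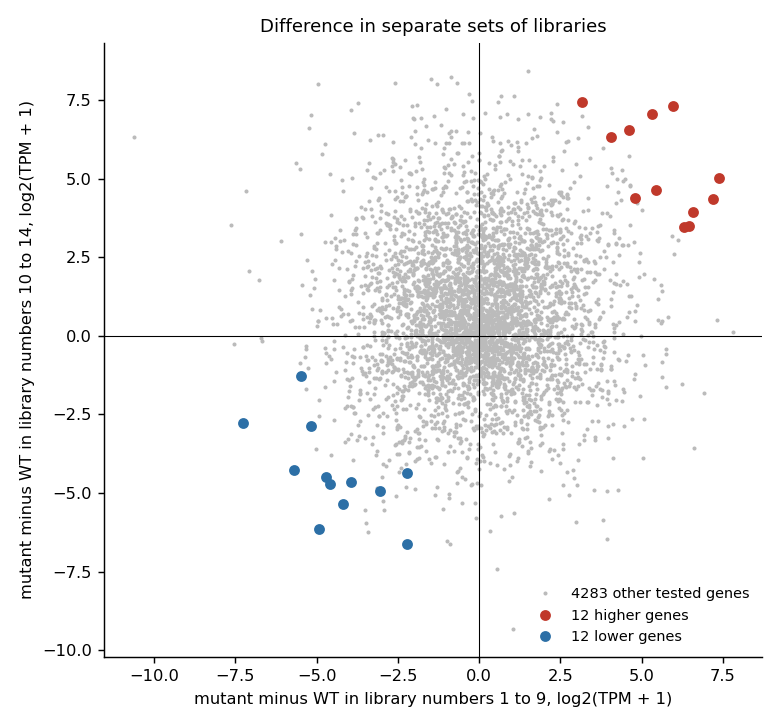
Difference of mutants minus WT on the log2(TPM + 1) scale in library numbers 1 to 9 (x axis, 3 WT and 5 mutant libraries) and 10 to 14 (y axis, 2 WT and 3 mutant libraries). Each dot is 1 tested gene, with the 12 higher genes in red and the 12 lower in blue. The gray cloud has no tilt, with a correlation of 0.02 across genes, and the colored dots lie in opposite corners because their pooled values chose them.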

How the data were processed

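QuantSeq 3′ libraries that keep strand were made from sorted CLPs of 13 mice, 1 library each. After trimming, the authors used STAR and the mm10 genome for alignment, and they deposited TPM in 2 tables, 1 per mutant genotype, that share the WT columns (0 values differ). The tool, annotation, and strand setting behind the TPM are not given in the sources used here. TPM divides by transcript length, which a 3′ tag does not follow, so levels were compared between libraries and not between genes. The labels and the study's methods differ in the number of sorted cells, and neither number is used here.

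The tables were joined by gene symbol. Genes with at least 1 TPM in at least 5 of 13 libraries were tested on log2(TPM + 1) with limma 3.58.1 in R 4.3.3 (trend, 2-sided, threshold 0.05 after Benjamini-Hochberg adjustment). DESeq2, which the authors used, needs counts and was not run. A model of 3 group means gave each genotype's value. Exact permutation tests were 2-sided over 1287 ways to assign the libraries. Differences on this scale understate the change of low genes. P-values measure the spread between these libraries. Gene positions are those of GENCODE M21 (GRCm38). The test was tried on simulated data.

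The members, gene lists, and tests were chosen with earlier results of these data known. Named genes are the 12 higher and 12 lower with the smallest p among those at least 1 away from WT in both genotypes, Notch1, Il21r, Deptor, genes without overlap, up to 4 genes per list with the smallest p, and the 3 most different between genotypes with opposite signs. The markers of sorted cells, other CCT subunits, and list members past the unadjusted threshold are named outside this rule. Alternatives were other pseudocounts, filters, scalings, limma settings, model terms, and leaving out each library.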

Additional observations from a re-analysis of the deposited data

Results flagged for a closer look

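By Dixon's ratio on the log2(TPM + 1) scale, a single library stood apart in 51 of 237 groups of 4 to 10 libraries. These groups cover 77 named genes and 2 library measures. The nominal rate of about 1 in 20, or 11.85 groups, assumes normally distributed values. Several of these genes were undetected in most libraries of a group, and many were chosen by their values. A trace level can then be flagged, as for Stk17b in Notch1+/- libraries (0.0976 TPM in library 13). The nominal rate is therefore no chance expectation here, and whether 51 is an excess was not tested. The groups are the 5 WT, the 5 Notch1+/-, and the 8 mutant libraries, which contain the Notch1+/- libraries, so that 1 value can count in 2 groups.

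Among the WT libraries, single high values were those of Cdc37 (162 TPM in WT 2), Mrpl14 (1.41 TPM in WT 10), Oaz2 (155 TPM in WT 10), Ddit4 (157 TPM in WT 2), Plk1 (89.0 TPM in WT 2), Mrpl21 (234 TPM in WT 1), Ndufb5 (492 TPM in WT 10), Sec61a1 (81.0 TPM in WT 2), Zfp687 (0.379 TPM in WT 2), and Zfp866 (32.3 TPM in WT 11). Single low values were those of Med16 (0 TPM in WT 11), Ctbp1 (1.66 TPM in WT 1), Ccnd1 (0 TPM in WT 10), and Zfp362 (0 TPM in WT 3).

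Within the Notch1+/- libraries, single high values were those of Prpf39 (3.27 TPM in library 12), Stk17b (0.0976 TPM in library 13), Stard3 (67.5 TPM in library 5), Med16 (0.0986 TPM in library 4), Ctbp1 (59.3 TPM in library 4), Prim2 (52.4 TPM in library 13), and Asf1b (0.559 TPM in library 4). Single low values were those of Gabarapl2 (19.9 TPM in library 4) and Zfp866 (0.635 TPM in library 4). Some values stood apart both there and among all 8 mutants. These were high for Chmp2b (44.5 TPM in library 5), Mphosph9 (3.28 TPM in library 5), Ascc1 (4.79 TPM in library 13), Pbdc1 (25.1 TPM in library 6), Luc7l3 (789 TPM in library 12), and Kat2a (21.0 TPM in library 13), and low for Fbxw7 and Tomm6 (0 TPM in library 6 for each).

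Other values stood apart only among the 8 mutants. High ones were those of Ash2l (4.19 TPM in library 4), Med16 (14.5 TPM in Notch1+/dTAD 14), Atp5k (30587 TPM in Notch1+/dTAD 14), and Zfp362 (32.7 TPM in library 13). Low ones were those of Mcts1 (1.56 TPM in library 4), Il4ra (0 TPM in library 12), Paip2 (6.38 TPM in Notch1+/dTAD 7), Erg (0.331 TPM in library 13), Bcl2 (0.422 TPM in library 6), Cdkn1a (0 TPM in library 5), Ndufa10 (14.9 TPM in Notch1+/dTAD 14), and Ndufb5 (0 TPM in Notch1+/dTAD 14). Library 13 held 8 of the 51 values, and libraries 4 and 6 held 7 each.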

How the results depend on the processing

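No paired analysis was possible because library numbers are not shared between genotypes. With 13 alternatives to the settings of the report, the count of genes at an adjusted p under 0.05 stayed at 0, with the smallest limma adjusted p between 0.0697 (no trend) and 0.352 (every gene above 0), and at an unadjusted p under 0.05 the counts were within 1.5 times those of the report except for lower genes, which were 157 with every gene above 0, 131 after quantile normalization, and 173 with a term for the number of genes at 1 TPM, instead of 85. Genes moving the same way were 5941 with every gene above 0, and genes without overlap 13 after quantile normalization. Leaving out 1 library gave 0 to 2 adjusted calls, 200 to 268 unadjusted ones (119 to 200 higher and 68 to 90 lower), 2417 to 2807 genes moving the same way, and 7 to 19 genes without overlap. That last count was 18, 19, 15, 19, and 18 without WT 1, 2, 3, 10, or 11, 13 and 14 without Notch1+/- 5 or 6, and 10 without Notch1+/dTAD 9 or 14. The cause was not tested, though fewer libraries leave fewer values that can overlap. Settings chosen after the data were seen used only library numbers 1 to 9 or only 10 to 14. Numbers 1 to 9 had 103 unadjusted genes of 2395 tested (59 higher, 44 lower), 1508 moving the same way, and 79 without overlap. Numbers 10 to 14 had 81 of 1262 tested (52 and 29), 902, and 321. Pools of so few libraries separate more often under random assignment, so these counts without overlap cannot be set against that over 13 libraries. Both settings had 0 adjusted calls. Over 76 named genes, 13 of 1977 recomputed differences changed sign, and none of them in the 24 genes that moved the same way. Rps29 was 0.0091 after quantile normalization. Bola2 was -1.23 and Ngdn 1.29 with the term for the number of genes, and without 1 library Bola2 ranged from -0.17 to 0.87 and Ngdn from -1.40 to 0.86. In numbers 10 to 14 only, Cdkn1a was 0.28 and Ngdn 1.74. Depth is unknown, so no limit can be given for a value of 0.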

Other observations

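Markers of sorted progenitors and early B cells that the tests did not call had uneven values. Cd27, a receptor of the TNF family found on lymphoid progenitors, was listed at 0 to 340 TPM in WT libraries and at 0 to 1252 TPM (median 522) in mutant libraries. Cd79b, a signaling chain of the B cell receptor, was at 1 TPM or more in 2 of 5 WT libraries, up to 305 TPM, and was listed at 0 in all 8 mutant libraries. Igll1, a part of the surrogate light chain, reached 51.4 TPM in WT and 791 TPM in mutants, with 2 of 5 and 4 of 8 libraries at 1 TPM or more.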
